A study of Mus musculus with 2 samples.

Results

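CTCF peaks that lie at the 3′ ends of protein-coding genes were examined in E14TG2a.4, a line of embryonic stem cells from a male mouse of strain 129/Ola, labelled as embryonic with an age of 3.5 day. A member was a peak of the deposited list called on both replicates together, on an autosome and in mm9 coordinates, whose midpoint lay within 1000 bp of the end of a coding gene of GENCODE vM1, outside coding sequence and more than 1000 bp from every coding transcription start. The rule uses position only. It found 1137 members among 38519 autosomal peaks, after 259 of the 1396 peaks within 1000 bp of an end had been left out as lying near a start or in coding sequence. The study holds ChIP-seq with an antibody to CTCF from 2 biological replicates of a single group, with no treatment, genotype or second cell type. Both replicates are the same line, which carries no label of a modification, and no expression data stand beside the peaks, so the labelled cell type was not checked against marker genes. The replicates' own lists held 35612 and 36015 autosomal peaks, of which 1066 and 1078 met the rule in replicates 1 and 2. With 1 group there is no test over samples: shares carry exact Clopper-Pearson 95% intervals, differences of shares carry Newcombe 95% intervals, and the main values are also given in the replicates' own lists; a value with no list named is from the pooled list. These intervals cover counting error only, and peaks, genes and gene pairs are not replicates.

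CTCF is a zinc finger protein that binds a long, asymmetric DNA motif and halts cohesin as cohesin extrudes loops of chromatin, so the direction in which a motif points matters for the loops it anchors. At the end of a gene RNA polymerase II passes the polyadenylation site, the transcript is cut and transcription stops some way downstream. Genes whose next neighbour is read from the opposite strand end tail to tail with it and are called convergent here; genes followed by a neighbour on the same strand are called tandem, and their end faces the start of that neighbour.

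The motif was learned from the strongest peaks that are no members. Its most frequent bases over 19 positions were GGCCACCAGAGGGCGCTAG, read on the strand with more G than C, which is called forward. A window was counted as holding the motif when its score, taken on both strands, reached 13.0 bits, the score that 1% of windows 2000 bp beyond the peaks' edges reach. The 8 sites shown first carry the pairs and the tandem ends described further on, in 5′ to 3′ order of the motif strand, with the 19 motif bases in capitals and 5 flanking bases on each side (mm9).
2210404O07Rik and Nfic, chr10:80858071-80858099, plus strand: gcaatGGCCACGAGGAGGCGGTGTcacct
Cd63 and Rdh5, chr10:128350434-128350462, minus strand: gagatGGCCACCAGAGGGCGCTTTtctca
Ubap1 and Kif24, chr4:41337328-41337356, minus strand: gaactGACCACCAGATGGCAGCCTgttcc
Rtbdn and Rnaseh2a, chr8:87480839-87480867, minus strand: aaagaAGCCAGAAGAGGGCACCAGatccc
Pde1b and Ppp1r1a, chr15:103360971-103360999, plus strand: tttatGTCCAGCAGATGGCGCTTTggcaa
Tnni1, chr1:137707606-137707634, plus strand: gtgatGACCACAAGGGGTCTGTGGaaagc
Arap1, chr7:108561513-108561541, plus strand: catttGGCCACTAGGGGGCAGTCAtggac
Rps19, chr7:25675640-25675668, plus strand: tcttcGGCCACTAGGTGGCAGCTGctagc
The first 5 each lie within reach of the ends of both genes of a convergent pair, and the last 3 lie at tandem ends and run along the gene.

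Of 21291 autosomal coding genes with any sequence open to the rule, 1210 had a member within 1000 bp of their end, 5.68% of genes. A single peak was found at 1199 of these ends and 2 peaks at 11, and no end had 3 or more. The reverse count shows how compact some loci are: 1055 members lay near 1 coding end, 80 near 2 and 2 near 3. The gene nearest to the member was convergent for 447, tandem for 567 and ended inside another coding gene for the remaining 123. Chromosome 16 held the fewest members, 21, and chromosome 7 the most, 115. Per Mb of sequence open to the rule near ends, chromosome 16 was also lowest, with 19.6, and chromosome 17 was highest, with 49.96. Chromosome 7 had the most such sequence, 2.92 Mb, and 39.3 members per Mb of it.

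The sequence open to the rule near ends came to 33.6 Mb, 1.40% of the gap-free autosomes, and held 33.9 midpoints per Mb, against 16.1 per Mb of all gap-free autosomal sequence. That ratio was 2.11 in the pooled list and 2.13 in each replicate's own list. The surroundings of the same genes were almost as dense. Sequence 2000 to 5000 bp from an end held 31.7 midpoints per Mb under the same exclusions. The ratio at ends was 1.07 in the pooled list, and 1.07 ± 0.00152 over the replicate lists (SD, n = 2). That SD covers only the difference between the lists. The pooled ratio rests on 1137 midpoints at ends and 2992 in the flanking sequence, and no interval for its counting error was computed. CTCF peaks were thus more frequent at coding ends than in the genome at large, and over all ends 1.07 times as frequent as a few kilobases away. The ratio of ends to that flanking sequence was also taken by the distance to the next gene, without intervals. From under 1 kb to over 50 kb it was 1.195, 1.08, 0.924, 1.02 and 0.842 for convergent genes. For tandem genes it was 1.14, 1.16, 1.12, 0.994 and 0.994. In the same order, the end densities rest on 84, 97, 125, 133 and 51 pairs of a midpoint and a gene for convergent genes. For tandem genes they rest on 9, 63, 176, 220 and 100. Whether the ratios differ between the classes of distance was not tested.

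The step in density was between the sides of the end. Beyond the end there were 38.0 midpoints per Mb, against 30.6 inside the gene, with 35.2 against 28.7 in the replicate 1 list and 35.96 against 29.05 in the replicate 2 list. The first 250 bp beyond the end held 39.1 per Mb, against 27.1 in the last 250 bp of the gene. Convergent genes had 37.2 beyond and 29.4 inside, and tandem genes 37.7 and 30.1, so the step was present in both classes. Over the 5 kb beyond the end the 250 bp bins stayed between 32.4 and 40.9 per Mb, against 24.9 to 33.9 over the 5 kb before it.

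**Figure D1:**
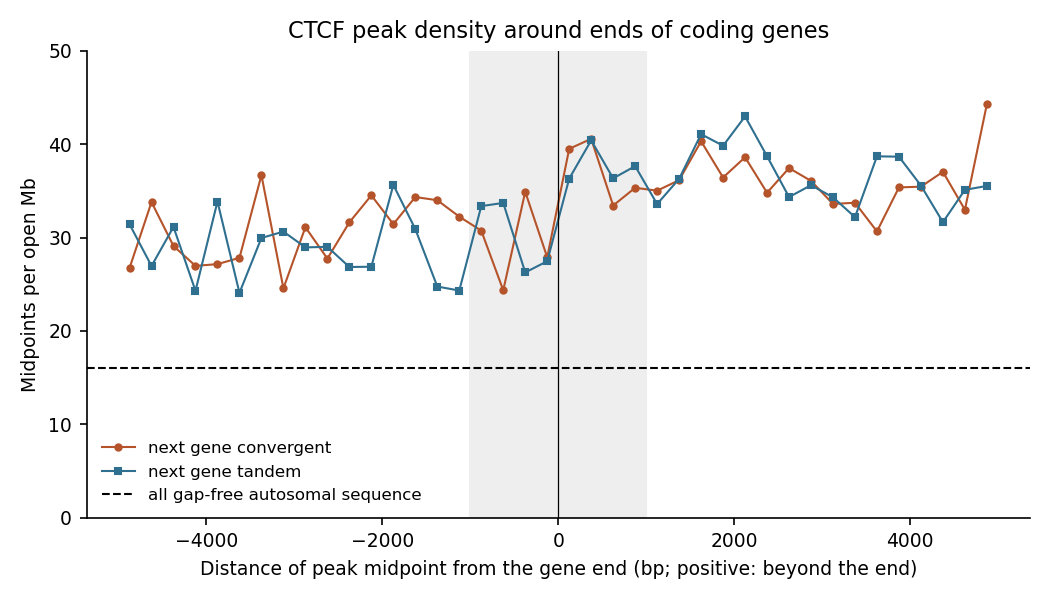
Pooled peak midpoints per open Mb (vertical axis) in 250 bp bins by distance from the end of a coding gene (horizontal axis, bp, positive beyond the end), for genes with a convergent and with a tandem next gene; the grey band is the 1000 bp reach of the rule and the dashed line the 16.1 per Mb of all gap-free autosomal sequence. Both lines stand above the dashed line throughout; single bins inside the gene and beyond the end overlap in height, while the densities over 1000 bp are 37.2 beyond and 29.4 inside for convergent genes and 37.7 and 30.1 for tandem genes.

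By annotation, 340 members (29.9%, 27.3 to 32.7) had their midpoint in an untranslated region of a coding transcript, 168 in an intron of a coding gene, 25 in another exon, 21 in a noncoding gene outside its exons and 583 (51.3%, 48.3 to 54.2) outside genes. Per open Mb, untranslated regions held 29.0 members and sequence outside genes 36.5. A motif within 50 bp of the midpoint was present at 43.5% of members in untranslated regions (38.2 to 49.0) and at 54.4% of those outside genes (50.2 to 58.5).

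The comparison of convergent with tandem genes asks whether tail-to-tail ends hold more CTCF peaks. An end peak was found at 485 of 8431 convergent genes, 5.75% (5.27 to 6.27), and at 564 of 10176 tandem genes, 5.54% (5.11 to 6.01). The difference of 0.21 percentage points had an interval of -0.454 to 0.882. The replicate lists gave 5.33% and 5.36% for convergent genes, 5.34% ± 0.0252, and 5.24% and 5.29% for tandem genes, 5.26% ± 0.0347 (SD, n = 2). Per open Mb, convergent ends held 33.8 midpoints and tandem ends 34.4, a ratio of 0.982, with 0.963 and 0.959 in replicates 1 and 2. The density is the fairer measure, because a tandem neighbour that starts close by removes sequence from the rule: convergent genes had a mean of 1721 open bases and tandem genes 1624. The interval of the difference in shares includes 0, and the density ratio has the opposite direction.

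Density at ends was lower where the next gene lay over 10 kb away, and sequence 2000 to 5000 bp from the same ends showed it too: from the nearest to the farthest class that flanking density was 40.8 and 19.7 per Mb for convergent genes and 41.6 and 23.4 for tandem genes. Where the next gene lay within 1 kb, 7.87% of convergent genes (6.33 to 9.65) and 2.09% of tandem genes (0.959 to 3.93) had an end peak. The open bases per gene in that class were 1614 and 438, and the densities were 48.8 and 47.6 per Mb, a ratio of 1.02 that was 0.974 in the replicate 1 list and 1.21 in the replicate 2 list. The tandem density there rests on 9 pairs of a midpoint and a gene, and the convergent one on 84. A peak within reach of both ends of a convergent pair counts for each gene of that pair. These 84 are therefore not independent, and the intervals of this class, which take genes as independent, are too narrow. From 1 to 3 kb both classes held 46.9 per Mb, and the ratio was 0.886 and 0.948 in the replicate lists. From 3 to 10 kb convergent ends held 36.4 per Mb and tandem ends 46.9, a ratio of 0.776, with 0.802 and 0.772 in the replicate lists; the share of genes differed by -1.65 points (-3.23 to -0.0566). From 10 to 50 kb the densities were 31.6 and 31.7, with ratios of 1.02 and 1.01 in the replicate lists. Beyond 50 kb they were 16.6 and 23.3, a ratio of 0.711 with 0.727 and 0.620 in the replicate lists, and the share differed by -1.12 points (-2.21 to 0.00984). The interval of the difference in shares excluded 0 in the nearest class and in the 3 to 10 kb class. In the nearest class the open sequence differed most, and both genes of a convergent pair can count the same peak. Genes with an end peak had a median of 9189 bp to the next gene and genes without one 15430 bp, ends inside other genes left out.

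**Figure D2:**
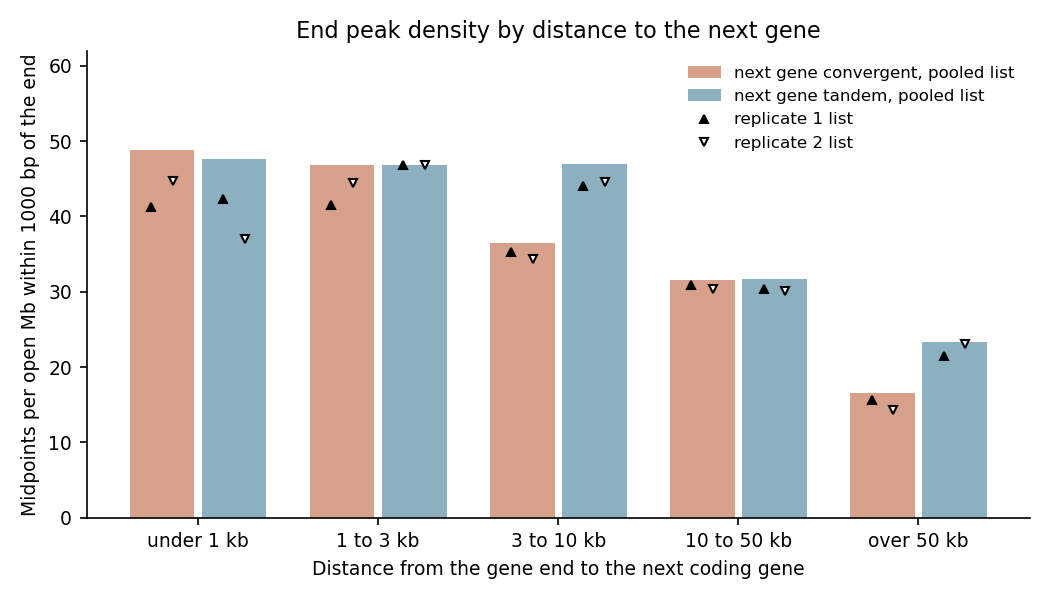
Peak midpoints per open Mb within 1000 bp of the end (vertical axis) by the distance to the next coding gene (horizontal axis); bars are the pooled list, convergent left of tandem, and triangles the replicates' own lists. In the nearest and the farthest distance class the density is 48.8 and 16.6 per Mb in convergent genes, and 47.6 and 23.3 in tandem genes. The 47.6 rests on 9 pairs of a midpoint and a gene. Convergent and tandem genes stand apart most at 3 to 10 kb and over 50 kb.

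Convergent pairs with close ends were also counted as pairs. A peak near either end was found at 26 of 331 pairs with ends 0 to 500 bp apart (7.86%, 5.20 to 11.3), at 23 of 201 pairs 500 to 1000 bp apart (11.4%, 7.39 to 16.7) and at 41 of 328 pairs 1000 to 2000 bp apart (12.5%, 9.12 to 16.6). The midpoint itself lay between the ends in 5, 10 and 17 of these pairs, and on the gene side of an end in the others. The sequence within 1000 bp of either end grows with the distance between the ends, and so does the stretch between them. Open bases per pair were not counted, so these shares and counts are not densities and are not compared between the classes.

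The strongest peaks by the deposited fold enrichment were at named ends of both kinds. Fold enrichment is a ratio on the authors' own scale, set per list, and the pooled value of a peak was below both replicates' values at each of the 20 ends that follow. The highest convergent peak, at 2210404O07Rik (ENSMUSG00000078439.3), stood at 34.46 in the pooled list, 44.35 in replicate 1 and 50.56 in replicate 2. Its midpoint lay 89 bp inside that gene, in an untranslated region, and 883 bp beyond the end of Nfic, which encodes a nuclear factor I transcription factor. Next came Extl1, a glycosyltransferase of the exostosin family, at 31.23 pooled, 38.81 in replicate 1 and 43.42 in replicate 2. Boc, a co-receptor for hedgehog ligands, had 30.53 pooled, 40.39 and 40.85, with the midpoint 790 bp beyond the end and outside genes. The others of the 10 were Dnajc11, Gpr3, Usp43, Hpd, Pip5kl1, 9130401M01Rik and Kif1a, from 29.12 down to 27.85 in the pooled list.

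The highest tandem peak lay 455 bp beyond Tnni1, the slow skeletal muscle troponin I gene, with 31.65 pooled, 35.38 in replicate 1 and 44.56 in replicate 2. Crip2, a LIM domain protein whose next gene is its relative Crip1, had 31.09 pooled, 40.92 and 43.42. Slc16a5, of the monocarboxylate transporter family, had 30.38 pooled, 38.02 and 40.56. Replicate 2 was the higher list at both Crip2 and Slc16a5. The rest were Chmp6, Tspan17, Arap1, Slc36a2, Rps19, H6pd and Il3, from 29.82 down to 28.13. Replicate 2 gave the higher fold at 7 of the 10 convergent and 8 of the 10 tandem ends. The peaks lay beyond the end at 3 of the 10 convergent and 7 of the 10 tandem ends. Of all members, 695 of 1137 lay beyond the end. Pairs of a midpoint and a gene numbered 301 beyond and 189 inside at convergent ends, and 350 and 218 at tandem ends. A motif was present somewhere in 9 of the 10 convergent and 8 of the 10 tandem peaks. Hpd, which encodes an enzyme of tyrosine breakdown, H6pd, a hexose phosphate dehydrogenase of the endoplasmic reticulum, and Il3, a cytokine of blood progenitors, had no motif in the peak at the score used.

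**Figure D3:**
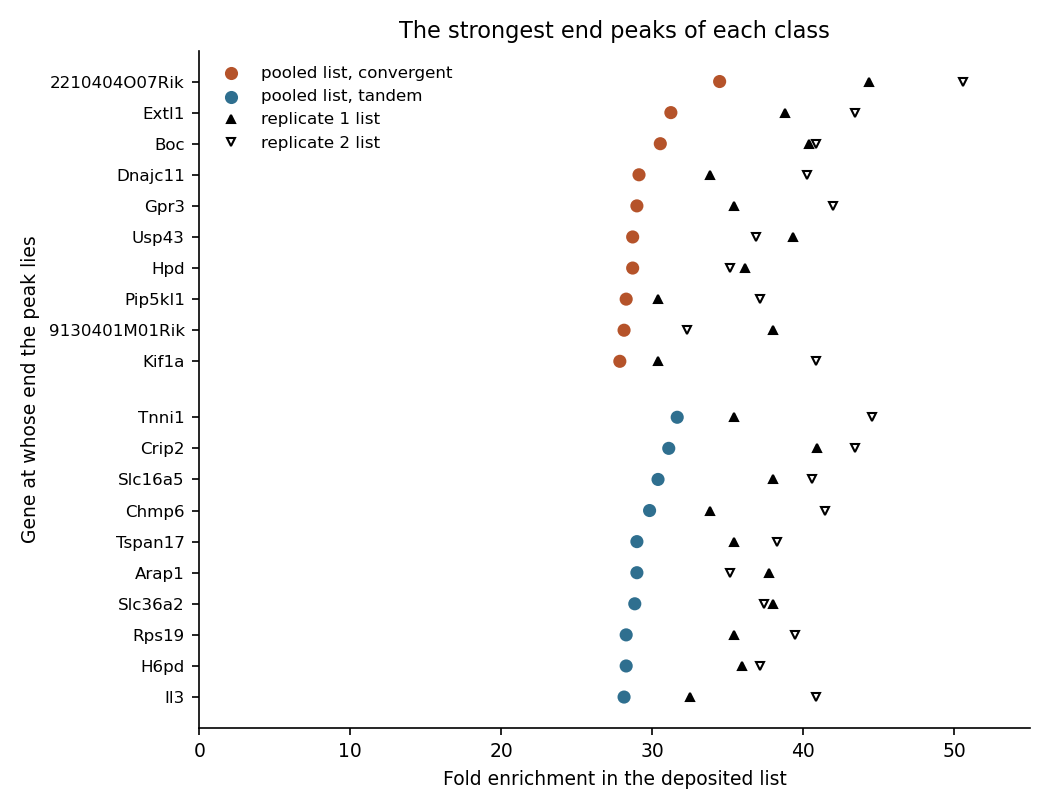
Deposited fold enrichment (horizontal axis) of the 10 convergent (above) and 10 tandem (below) end peaks with the highest pooled fold among those found in both replicates, one gene a row; circles are the pooled list and triangles the replicate lists. Pooled values run from 27.85 to 34.46 in convergent genes and from 28.13 to 31.65 in tandem genes, and every replicate value lies to their right.

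The 5 strongest peaks within 1000 bp of both ends of a convergent pair included that of 2210404O07Rik and Nfic. Between Cd63, a tetraspanin of late endosomes, and Rdh5, a retinol dehydrogenase, the ends are 777 bp apart and the peak had 27.01 pooled, 29.57 in replicate 1 and 37.42 in replicate 2. Its motif, printed above, scored 22.4 bits and runs along Rdh5. At Ubap1, a subunit of the ESCRT-I sorting complex, and Kif24, a centriolar kinesin, the peak had 23.21 pooled, 27.72 and 28.85. The end of Rtbdn lies 7 bp from that of Rnaseh2a, which encodes the catalytic subunit of RNase H2, and their peak had 22.23 pooled, 28.25 and 24.28. At Pde1b, a calcium-dependent cyclic nucleotide phosphodiesterase, and Ppp1r1a, an inhibitor of protein phosphatase 1, it had 21.52 pooled, 27.99 and 27.13. A motif within 50 bp of the midpoint was present at each of the 5, pointing along the plus-strand gene at 2210404O07Rik and Pde1b and along the minus-strand gene at the others.

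Members had higher fold enrichment than other peaks. The median was 14.2 in members and 12.1 in the 37382 other autosomal peaks, with 15.8 against 13.7 in the replicate 1 list and 16.57 against 14 in the replicate 2 list. Members made up 2.23% of the weakest of 5 equal classes of fold (1.91 to 2.58) and 4.15% of the strongest (3.72 to 4.62). Convergent and tandem members had medians of 14.2 and 14.4. Other properties moved with membership: members were 945 bp wide at the median against 914 bp, the 100 bp on each side of the midpoint had 49.8% GC against 46.8%, and 60.4% of members had another peak within 10 kb (57.5 to 63.3) against 46.4% of other peaks (45.9 to 46.9). Their part in the fold difference was not tested.

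A peak in both replicates' own lists overlapped 86.2% of all autosomal pooled peaks. Among members 1017 of 1137 did, 89.4% (87.5 to 91.2), against 86.1% of other peaks (85.7 to 86.4), a difference of 3.36 points (1.41 to 5.05). Members also had the higher median fold, 14.2 against 12.1, and the part of fold in this difference was not tested. In neither list was a peak overlapped by 32 members and 1266 other peaks. Among members found in both, the log2 ratio of replicate 1 to replicate 2 fold had an SD of 0.287, against 0.293 in other peaks, and 4.92% of these members, against 5.17% of such other peaks, differed by more than 1.5 times. Among the members that differed most were Zfp653 (6.6 in replicate 1 and 12.85 in replicate 2) and Tmem217 (7.25 and 13.09) with replicate 2 higher, and Rnpep (10.03 and 4.86), Tbr1 (12.67 and 6.28) and Capn11 (20.07 and 10) with replicate 1 higher. These were all tandem ends, named for that ratio.

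The motif lay within 50 bp of the midpoint in 53.8% of all autosomal pooled peaks. In members the share was 49.9% (46.9 to 52.8) and in other peaks 54.0% (53.5 to 54.5), a difference of -4.1 points (-7.05 to -1.16). The other peaks include the 5000 on which the motif was learned. Learned on odd and read on even chromosomes, the difference was -0.391 points. From the weakest to the strongest of 5 fold classes the share in members was 45.6%, 57.6%, 59.4%, 51.4% and 40.6%. In other peaks it was 51.55%, 58.2%, 56.7%, 53.5% and 49.9%. The replicate lists disagreed in sign, with -3.73 points in replicate 1 and 1.11 in replicate 2. Anywhere in the peak the motif was found in 83.7% of members (81.5 to 85.8) and 82.1% of other peaks (81.7 to 82.5). The score was not adjusted to the length of the peak, and members were wider, 945 against 914 bp at the median. Convergent members had it near the midpoint in 48.8% and tandem members in 51.7%, a difference of -2.91 points (-9.06 to 3.28).

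Among the 567 members with a motif near the midpoint, 312 had it running along the nearest gene, 55.03% (50.8 to 59.2). At convergent genes the share was 107 of 218, 49.1% (42.3 to 55.9), and at tandem genes 175 of 293, 59.7% (53.9 to 65.4). The difference, convergent minus tandem, was -10.6 points (-19.2 to -1.92), with -9.31 in the replicate 1 list (-18.0 to -0.51) and -11.1 in the replicate 2 list (-19.6 to -2.40). Beyond the end 58.7% of members' motifs ran along the gene (53.5 to 63.8) and inside the gene 48.2% (41.1 to 55.4). Beyond the end the share was 75 of 140 at convergent genes, 53.6% (44.95 to 62.03), and 118 of 188 at tandem genes, 62.8% (55.4 to 69.7), a difference of -9.2 points whose interval, -19.8 to 1.54, includes 0, as did those of both replicate lists.

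Peaks 2000 to 5000 bp from ends, under the same exclusions, had smaller contrasts: 51.3% of motifs ran along convergent genes (47.3 to 55.4) and 52.6% along tandem genes (49.3 to 56.0), a difference of -1.28 points (-6.47 to 3.91). At that distance beyond the end the shares were 56.7% and 55.3%. Over all genes 491 of 883 motifs there ran along the gene, 55.6% (52.3 to 58.9), against 58.7% within 1000 bp beyond the end. An excess along the gene beyond the end was therefore not particular to the 1000 bp next to it. On both sides of the end, 2000 to 5000 bp away, the share was 52.0% (49.5 to 54.4), an interval that includes 50%. The excess of one direction at ends was not seen at a stricter motif score. At 19.9 bits, reached by 0.1% of flanking windows, 211 members kept a motif and 49.3% of these ran along the gene (42.4 to 56.2), with 47.7% of 86 at convergent and 49.5% of 107 at tandem ends. Members near both ends of a convergent pair were assigned to the nearer end, which by itself places their motif along one gene or the other.

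**Figure D4:**
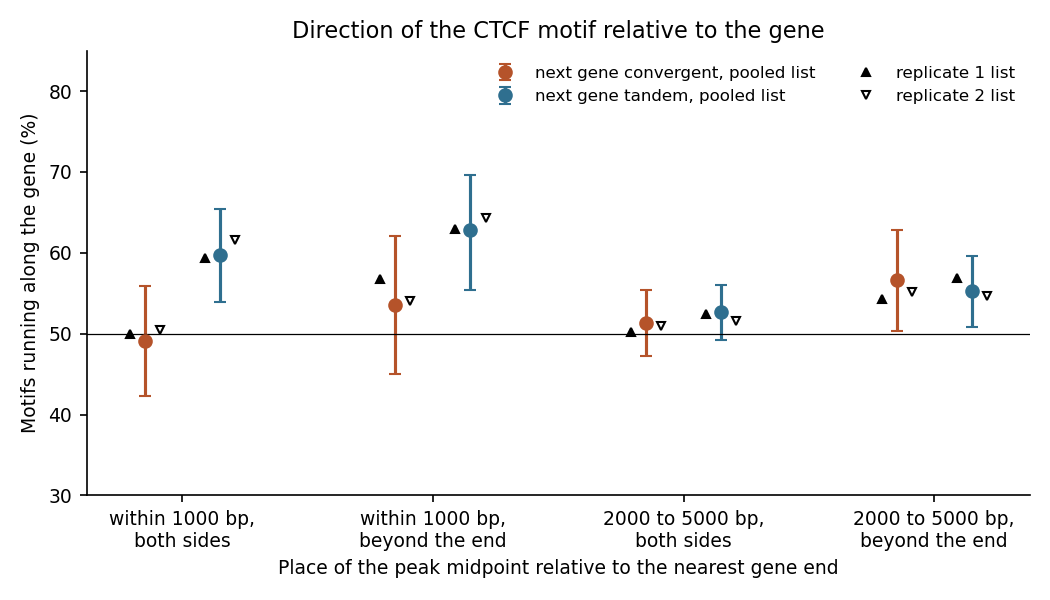
Share of peaks with a motif near the midpoint whose motif runs along the nearest gene (vertical axis, from 30%), by place of the midpoint (horizontal axis); circles with exact 95% intervals are the pooled list, convergent left of tandem, and triangles the replicate lists. At ends the tandem share of 59.7% stands above the convergent share of 49.1%, and 2000 to 5000 bp away the shares lie between 51.3% and 56.7%.

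The site string that recurred most among all pooled peaks, over 24 bases with the 19 motif bases in capitals, was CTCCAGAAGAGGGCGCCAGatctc, at 192 peaks of which 6 were members. Mouse B2 elements, short repeats that have spread by retrotransposition, are known to carry CTCF motifs; repeat annotation was not used here. Sites with up to 3 mismatches to that string were in 30 members, 2.64% (1.79 to 3.75), and in 1599 other peaks, 4.28% (4.08 to 4.49), a difference of -1.64 points (-2.45 to -0.518). Their median fold was 11.5 in members with such a site and 14.3 in members without one, and 7.46 and 12.4 in other peaks. The motif ran along the gene in 17 of the 30 members.

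A gene's own promoter could be bound as well. Among coding genes longer than 3000 bp, 11.8% had a pooled midpoint within 1000 bp of one of their own starts. The share was 152 of 1118 genes with an end peak, 13.6% (11.6 to 15.8), and 1890 of 16244 genes without one, 11.6% (11.2 to 12.1). The difference of 1.96 points had an interval of 0.0101 to 4.15, and in the replicate lists it was 0.909 (-0.954 to 3.04) and 1.34 (-0.549 to 3.49), whose intervals include 0. With the next gene 1 to 3 kb away the share was 12.2% with an end peak and 15.05% without one. In each other class of that distance the share was higher with an end peak, ends inside other genes left out. The 5 such genes with the highest end fold were Tspan17, Rps19, Pip5kl1, H6pd and Zfp385a. Rps19, a protein of the small ribosomal subunit, had an end peak of 28.27 pooled, 35.38 in replicate 1 and 39.42 in replicate 2, with its midpoint 892 bp beyond the end. Its site, printed above, scored 20.0 bits and runs along the gene. Zfp385a, a zinc finger gene, had 27.71 pooled, 34.06 and 37.7, with the midpoint 271 bp beyond the end.

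Gene families differed in how often their ends held a peak, beside 5.68% of all coding genes. Ribosomal protein genes had one at 10 of 79 ends, 12.7% (6.24 to 22.1), led by Rps19, Rpl22, Rpl19 and Rpl38; the replicate lists had 9 each. Solute carriers, which move ions and metabolites across membranes, had one at 32 of 341, 9.38% (6.51 to 13.0), 21 of them tandem and 8 convergent, led by Slc16a5, Slc36a2, Slc27a4 and Slc29a1; the replicate lists had 29 and 31. The interval of both families lay above the share of all coding genes. Olfactory receptors had one at 6 of 1105, 0.543% (0.2 to 1.18), and vomeronasal receptors at 0 of 327, which by the exact interval allows up to 1.12%. These receptor genes had fewer open bases per gene, 999 and 1076, beside 1652 for all coding genes.

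In the other lists the interval included the share of all coding genes. Zfp genes had an end peak at 16 of 361, 4.43% (2.55 to 7.10), oxidative phosphorylation genes at 5 of 78, histone cluster genes at 3 of 54 and RNA polymerase II subunits at 2 of 12, Polr2c and Polr2b, whose ends lie inside other genes. A single gene had one among 27 genes of mRNA 3′ end processing (Papola, a poly(A) polymerase, 9.71 pooled, 10.56 in replicate 1 and 9.14 in replicate 2), 15 DNA methylation enzymes (Tet1, which oxidises methylcytosine, 7.47 pooled, 8.83 and 7.72), 28 imprinted genes (Rasgrf1, 7.6 pooled, 7.39 and 7.14), 40 Hox genes (Hoxa13, 9.85 pooled, 8.45 and 11.71) and 51 keratins (Krt28, 16.74 pooled, 18.75 and 20.28). None of 20 pluripotency factors, 20 CTCF and cohesin genes or 40 proteasome subunits had one, which allows up to 16.8%, 16.8% and 8.81%.

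**Figure D5:**
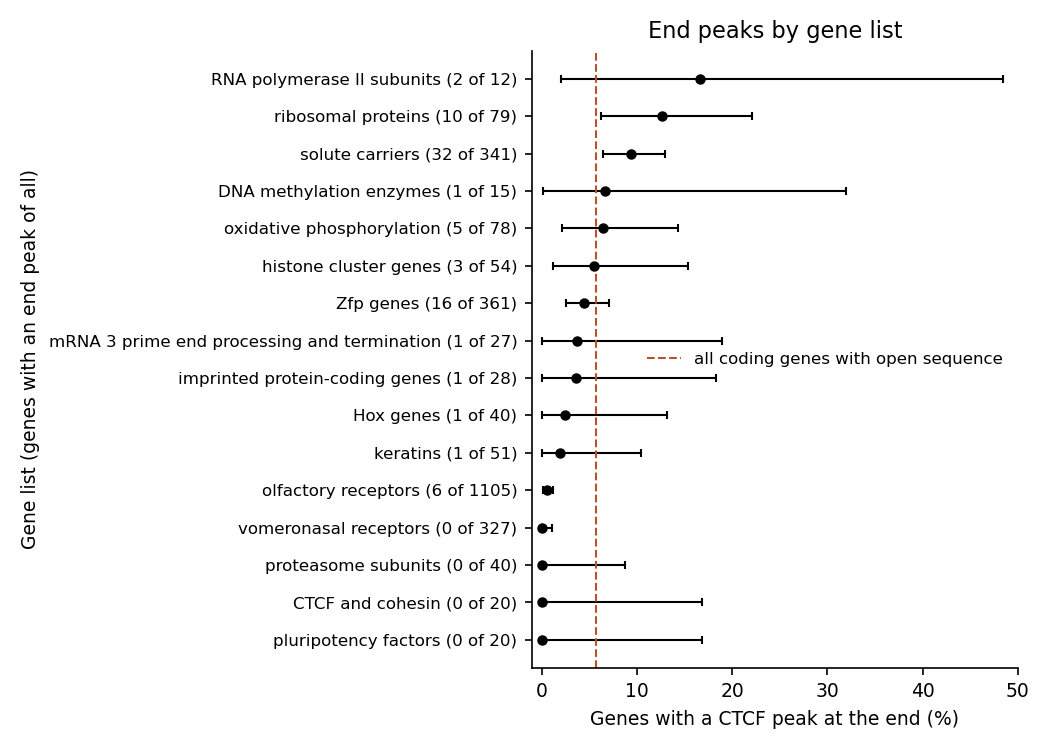
Share of genes with a CTCF peak at the end (horizontal axis, percent) in 16 gene lists (rows, with the number of genes with an end peak and of all); bars are exact 95% intervals and the dashed line is the 5.68% of all coding genes with open sequence. Ribosomal proteins and solute carriers lie above the line with their whole interval, and olfactory and vomeronasal receptors below it.

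The peaks nearest to the 1000 bp limit are given as a description. Just inside it lay the peaks of Cdh16, 999 bp inside the gene with a pooled fold of 22.79, and of Katnal2 and Clip2, each 998 bp inside with 15.33 and 21.38. Just outside lay those of Vstm2l, 1001 bp inside the gene with 9.14, and of Osbpl11 and Padi4, each 1002 bp beyond the end with 6.47 and 8.44.

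The rule was repeated on the authors' mm10 conservative IDR set, with summits in place of midpoints and without the exclusion of coding sequence. Of 20661 autosomal RefSeq coding genes it used 16456, on 18 autosomes, for which the tables used here give a strand. The genes left out were not seen as next genes, and their starts were not kept free. Some convergent and tandem labels on mm10 may therefore be wrong, and some summits at starts may be counted. In the conservative set 1026 of 41091 summits lay at ends. Ends held 35.8 summits per open Mb and sequence 2000 to 5000 bp away 34.8, a ratio of 1.03. An end peak was found at 447 of 6711 convergent genes, 6.66% (6.08 to 7.28), and at 495 of 8253 tandem genes, 5.998% (5.50 to 6.53), a difference of 0.663 points (-0.119 to 1.46) with a density ratio of 1.02. That ratio was below 1 in the other mm10 sets, at 0.9984 in the optimal set and 0.986 and 0.989 among the strongest summits of replicates 1 and 2. Signal divided by each replicate's median over the matched summits had a median of 1.15 in replicate 1 and 1.18 in replicate 2 at ends, 1.16 ± 0.0204 (SD, n = 2), against 0.996 and 0.997 at other summits. By symbol, 683 of 813 genes with an mm9 end peak had an mm10 end peak, 84.0% (81.3 to 86.5), against 225 of 13061 genes without one, 1.72% (1.51 to 1.96); both lists come from the same libraries.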

How the data were processed

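The mm9 lists are the authors' broad-peak calls per replicate and for both together, per the file headers and the deposited notes. The authors deposited a fold enrichment per peak, a ratio whose reference is not stated, and a −log10 p value, never below 5. The mm10 lists are deposited narrow peaks with a signal per peak on a scale that is not stated. The sources used here do not name an aligner, peak caller or threshold. The files hold no read counts, so depth is unknown and peaks near the callers' limits may be missed in either replicate.

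Members, next genes, open sequence and motifs were computed from the mm9 genome and GENCODE vM1 in Python 3.11.15 with numpy 2.4.6, pandas 2.3.3, scipy 1.17.1, statsmodels 0.14.6 and numba 0.67.0. Open sequence has no gap, no coding sequence and no coding start within 1000 bp. The next gene is the coding gene whose nearest edge lies closest beyond the end. The 19 bp motif came from a seed of 8 bases and expectation maximisation on 5000 non-member peaks. Steps were tested on simulated data. The members and gene lists were chosen with earlier results of these data known. Named are the 10 ends of highest pooled fold per class among peaks found in both replicates, the 5 strongest shared by a convergent pair, the 5 strongest with a promoter peak, up to 4 per gene list, the 3 per direction with the largest replicate ratio and the 3 nearest each side of the limit. A member that this rule names is not reported here. On mm10, summits within 100 bp were matched. No coordinates were converted.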

Additional observations from a re-analysis of the deposited data

How the results depend on the processing

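Unless another list or window is named, values are from the pooled list; the settings that also keep starts of noncoding transcripts free, and the replicate lists on mm10, were chosen after seeing the data, and the causes of the changes were not tested. No paired analysis was possible because there is 1 group. Depth is unknown, the threshold behind each list is not stated, the fold scale is not stated, and midpoints of broad peaks stand in for summits on mm9. Leaving out a replicate means using the other replicate's own list.

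The number of members was 586 with a 500 bp window, 2207 with 2000 bp and 674 among peaks at or above the median fold. The density ratio of ends to the genome was above 1 in all settings run, at 2.12 and 2.10 with windows of 500 and 2000 bp, 2.12 and 2.17 with 500 and 2000 bp kept free around starts, 2.08 with coding sequence kept, 2.47 at or above the median fold, 2.18 among peaks found in both replicates, 2.09 with noncoding starts free and 1.99 with the ends of all coding transcripts; without a replicate it was 2.13 to 2.13. Against sequence 2000 to 5000 bp away it was 1.08 with 500 bp, 1.07 and 1.11 with 500 and 2000 bp free around starts, 1.06 with coding sequence kept, 1.13 at or above the median fold, 1.08 among peaks found in both, 1.08 with noncoding starts free, and 1.06 to 1.07 without a replicate. On mm10 it was 1.02 to 1.03 without a replicate.

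The difference of convergent minus tandem in genes with an end peak reversed to -0.62 points with the next gene over 3000 bp away and was 2.54 under 3000 bp. It was 0.381 and 0.61 with windows of 500 and 2000 bp, 0.066 and 0.0234 with 500 and 2000 bp free around starts, 0.0836 with coding sequence kept, 0.153 at or above the median fold, 0.106 among peaks found in both, 0.6997 by genes of any biotype, 0.28 with ends inside genes classed by strand, 0.269 with close pairs counted once, 0.136 with noncoding starts free, and 0.0742 to 0.0878 without a replicate. The density ratio reversed to 1.08 and 1.01 with windows of 500 and 2000 bp, 1.06 by any biotype, 1.01 with inside ends classed by strand and 1.02 under 3000 bp. It was 0.978 and 0.965 with 500 and 2000 bp free around starts, 0.956 with coding sequence kept, 0.96 among peaks found in both, 0.871 over 3000 bp, 0.935 with close pairs once, 0.974 with noncoding starts free, and 0.959 to 0.963 without a replicate.

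The member to other ratio of median fold was 1.15 with the 2000 bp window, 1.20 with 2000 bp free around starts and 1.13 among peaks found in both. The share of members found in both replicates was 88.2% and 88.4% with windows of 500 and 2000 bp, 100% at or above the median fold, and 94.7% to 95.8% within a replicate's own list. A peak of a replicate's own list always overlaps itself, so there the share measures overlap with the other replicate's list only. The motif difference reversed to 1.66 points anywhere in the peak and was -0.194 within 150 bp and -0.391 with odd-chromosome training; without a replicate it ran from -3.73 to 1.11, positive without replicate 1. The share of motifs along the gene was 57.3% and 53.9% with windows of 500 and 2000 bp, 53.8% at the 5% score, 52.4% with odd-chromosome training and 55.6% to 57.2% without a replicate, and reversed to 49.3% at the 0.1% score. The promoter difference was 2.65 points with 500 bp, 1.65 with 2000 bp free around starts, 0.81 at or above the median fold, 0.979 among peaks found in both, and 0.909 to 1.34 without a replicate. Of all 2595 listed genes, 3.04% had an end peak, beside 5.68% of all coding genes, whose share in the other settings is not given here. The listed genes include 1105 olfactory and 327 vomeronasal receptors, which have fewer open bases per gene. The share of listed genes was 1.25% and 5.51% with windows of 500 and 2000 bp, and 3.25% and 3.92% with 500 and 2000 bp free around starts. It was 3.20% with coding sequence kept, 1.81% at or above the median fold, 2.85% among peaks found in both and 2.81% to 2.89% without a replicate.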
